A study of Homo sapiens with 10 samples.

Results

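The trefoil factors and the genes of the goblet-cell secretory programme were followed in A549, a cell line established from a human lung adenocarcinoma and labelled here as alveolar basal epithelium. The 10 genes were taken by name: the trefoil peptides TFF1, TFF2 and TFF3, the transcription factors SPDEF and FOXA3, the anterior gradient proteins AGR2 and AGR3, the lectin REG4, the glycosyltransferase GCNT3 and the mucus protein FCGBP. All 10 were rows of the count table of 33551 genes, and 8 of them passed the filter on low counts that left 17978 genes for testing. They were chosen by name with the fitted log2 differences of the lines from WT already known, TFF1 among them, so those differences are given here as a description, with no test. The lines differ by label in ABCA3, a lipid transporter of alveolar type 2 cells: wild type (WT), knockout (KO), and the variants L101P, E292V and E690K. Each was sampled untreated and after a night with the lentiviral vector VSVG LV-ABCA3:GFP (MOI 20), that is 20 vector units per cell. There were 10 libraries, 1 for each line and treatment. Each genotype is 1 line, and the labels do not say how it was made or whether it is a clone.

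Goblet cells are the mucus-secreting cells of the airway and gut epithelium. In the airway, SPDEF drives goblet-cell differentiation and FOXA3 promotes mucus genes, AGR2 is a protein disulfide isomerase of the endoplasmic reticulum needed for mucin folding, GCNT3 builds branched O-glycans on mucins, and the trefoil peptides and FCGBP are secreted into mucus together with them. TFF1 and TFF2 are best known from the stomach and TFF3 from intestinal and airway goblet cells.

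Total counts were 59430095 to 96811421 per library, with the lowest and the highest in the untreated and the transduced L101P library. The labelled cell type was checked on 12 alveolar type 1 and type 2 markers: their summed level was 3.54 to 4.602 CPM (counts scaled to a fixed library total), so these markers were nearly absent. The vector's own genes were read as a check of the labels, and they went against them in the KO pair. There ABCA3 was at 600.5 CPM in the library labelled untreated and at 25.8 CPM in the library labelled transduced, and the EGFP row had 2842 and 4 counts, while EGFP was higher in the transduced library of WT, L101P and E292V. In E690K EGFP was at 16.3 and 18.0 CPM with overlapping intervals, and in L101P ABCA3 was lower in the transduced library (1156 and 896 CPM). The untreated WT, E292V and E690K libraries held 5924, 1634 and 1236 EGFP counts. Directions within the KO pair follow its labels, with the turned values beside them where they matter. The L101P pair differed most between its own libraries: the log2 change had an SD of 0.25 across 9458 genes averaging 10 CPM or more, against 0.11 to 0.19 in the other lines. Of the counts from 1 to 10, 81.4% were even, so low counts came mostly in pairs of reads. Intervals of levels are therefore 95% Wilson intervals on 0.5 of the count. Intervals of ratios within a pair are exact 95% binomial intervals, also on 0.5 of the counts. Both cover counting error only.

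TFF1 had the widest range of the 7 genes counted in every library. This secreted peptide of the gastric and airway mucosa is encoded on the minus strand of chromosome 21 (42362282 to 42366594, GRCh38, GENCODE release 29). In the WT line it was at 2.82 CPM untreated (236 counts) and 2.58 CPM transduced (210 counts), and in E292V at 1.98 and 0.654 CPM (156 and 62 counts). The KO pair had 17.6 and 35.5 CPM, the E690K pair 37.9 and 38.0 CPM, and the L101P pair 20.8 and 106.3 CPM. The 6 libraries of KO, L101P and E690K thus all lay above the 4 libraries of WT and E292V, and the groups did not overlap. The share of all genes that split the libraries this way, or in the other ways named below, was not counted. ICMT, a gene outside the programme, split them alike (146 to 158 against 175 to 198 CPM). In the order of levels, both WT libraries and the untreated E292V library did not differ beyond their counting intervals, nor did transduced KO and both E690K libraries. The transduced L101P library stood at 162.6 times the transduced E292V library, and the highest of the other 9 libraries was at 38.0 CPM.

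TFF3 and TFF2 were rare transcripts. TFF3, the intestinal trefoil factor, had 4 to 154 counts per library, with 0.239 and 0.197 CPM in the WT pair, 0.347 and 0.295 in KO, 0.707 and 1.59 in L101P, 0.482 and 0.0422 in E292V, and 0.582 and 0.461 in E690K. Only the transduced L101P library lay above its neighbour in the order beyond the counting interval. TFF2, the spasmolytic polypeptide, had 16 counts in transduced KO, 4 in transduced L101P and 0 in the other 8 libraries. For a count of 0 the upper 95% limit was 0.0810 to 0.129 CPM. In transduced KO TFF2 was at 0.197 CPM, and it did not pass the filter. The trefoil transcripts share little sequence: the longest run shared by annotated coding transcripts was 15 bases for TFF1 and TFF2, 10 for TFF1 and TFF3, and 11 for TFF2 and TFF3.

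**Figure D1:**
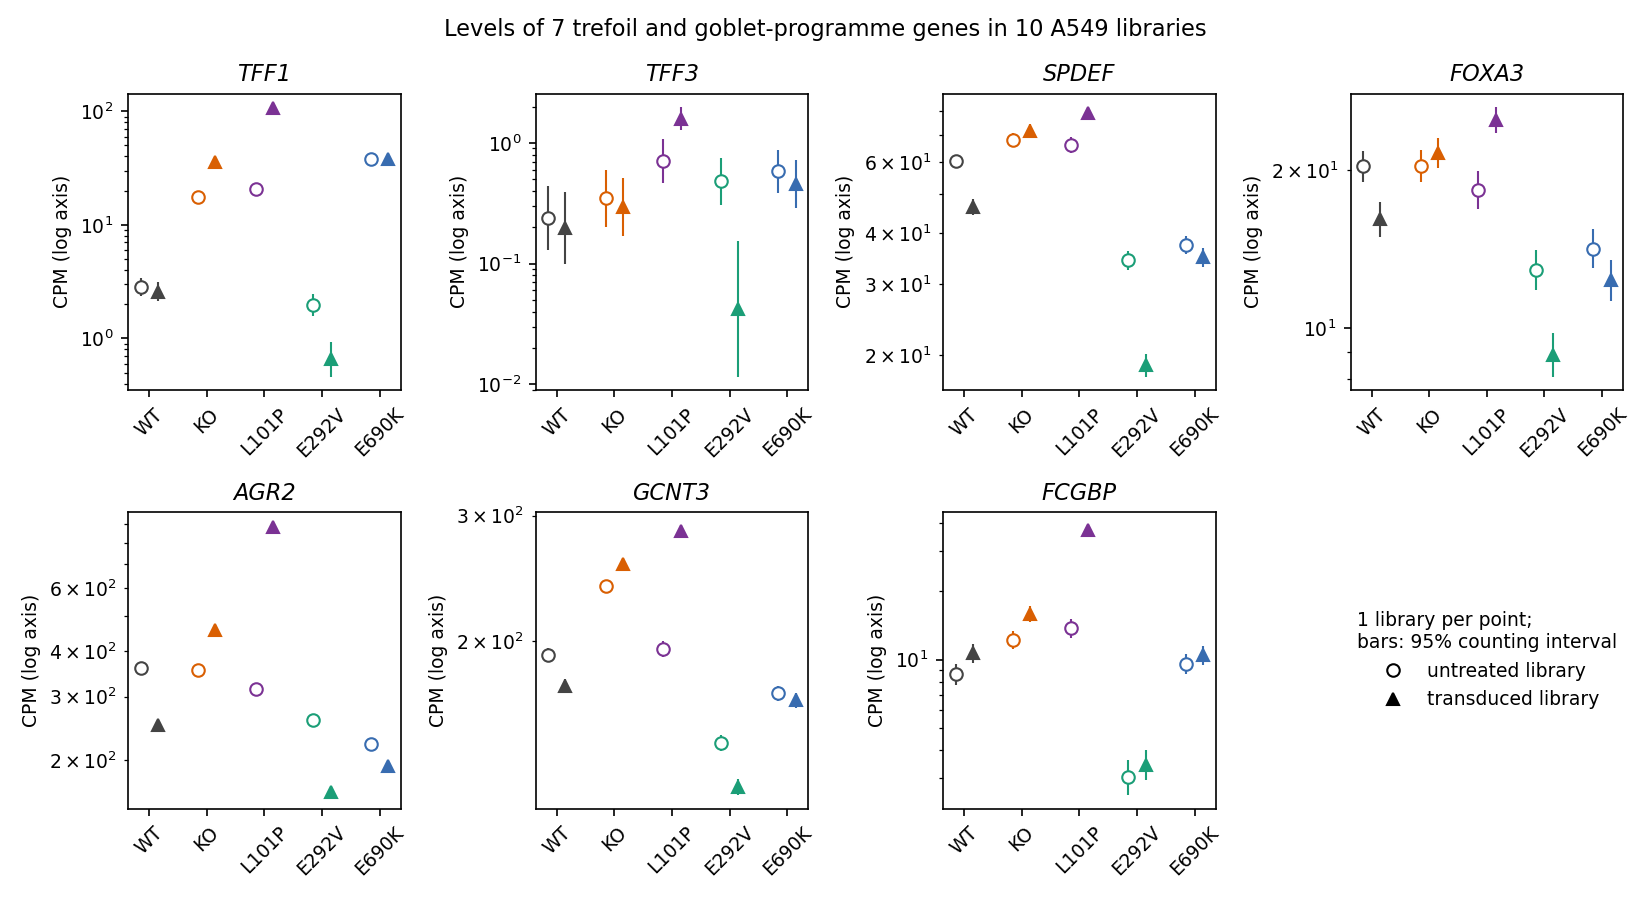
Levels of 7 genes in CPM (log axes, a separate range in each panel) by line, with open circles for untreated and triangles for transduced libraries, 1 library per point, and bars for the 95% counting interval. TFF1 is lowest in WT and E292V, the transduced L101P library is the highest point in the 7 panels, and SPDEF and FOXA3 in E690K lie below WT.

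The transcription factors followed another order of lines than TFF1. SPDEF, an ETS-family factor (chromosome 6, 34537802 to 34556333), was at 60.2 and 46.4 CPM in the untreated and transduced WT libraries, at 68.2 and 71.7 in KO, at 66.2 and 79.5 in L101P, at 34.4 and 18.9 in E292V, and at 37.4 and 34.9 in E690K. FOXA3, a forkhead factor (chromosome 19, 45863989 to 45873797), was at 20.3 and 16.1 CPM in WT, 20.4 and 21.6 in KO, 18.3 and 25.0 in L101P, 12.9 and 8.89 in E292V, and 14.2 and 12.3 in E690K. For both genes the 4 libraries of E292V and E690K were below all 6 libraries of WT, KO and L101P, although the counting intervals of FOXA3 in untreated E690K and transduced WT overlapped. In untreated E690K, TFF1 was thus at 13.4 times the WT level while SPDEF was at 0.621 and FOXA3 at 0.696 of it. The log2 CPM of SPDEF and FOXA3 had a Pearson correlation of 0.99 over the 10 libraries, the highest of the 28 pairs among the 8 tested genes, against 0.65 for SPDEF and 0.62 for FOXA3 with TFF1. These libraries share lines and depth, so the correlations are descriptions.

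The start regions of these 2 genes are shown because their levels moved together. Each sequence is 300 bases in RefSeq's GRCh38.p14 table, from 250 bases before the annotated start, read in the direction of the gene: SPDEF at chr6:34556280-34556579 on the minus strand and FOXA3 at chr19:45864076-45864375 on the plus strand. Capitals mark matches to 4 motifs searched on both strands. The forkhead core was searched as TNTTTAC. The core of the box at which transcription starts are set was searched as TATAAA, and the core bound by the SPDEF protein as CCGGAT. The last was the palindromic estrogen response element.
SPDEF: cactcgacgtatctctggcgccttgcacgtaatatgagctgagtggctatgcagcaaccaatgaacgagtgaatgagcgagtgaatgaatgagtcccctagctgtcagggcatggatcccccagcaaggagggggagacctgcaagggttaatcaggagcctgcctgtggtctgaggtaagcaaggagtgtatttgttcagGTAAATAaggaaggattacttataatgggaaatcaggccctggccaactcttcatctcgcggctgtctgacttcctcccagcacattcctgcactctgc
FOXA3: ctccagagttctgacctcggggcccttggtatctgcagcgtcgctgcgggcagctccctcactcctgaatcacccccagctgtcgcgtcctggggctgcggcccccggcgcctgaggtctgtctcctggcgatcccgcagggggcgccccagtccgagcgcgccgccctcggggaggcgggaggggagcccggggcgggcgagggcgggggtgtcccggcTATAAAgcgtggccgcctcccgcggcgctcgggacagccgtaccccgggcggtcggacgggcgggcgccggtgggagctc
SPDEF held 1 match, GTAAATA, the forkhead core on the opposite strand, starting at position -49 from the annotated start. FOXA3 held 1 match, TATAAA at position -30. Of 35116 promoter windows of this length, 10.8% held the forkhead core, 11.5% TATAAA, 7.12% the SPDEF core and 0.057% the estrogen response element. A match is a run of letters and not a shown binding site.

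AGR2 had the highest median level of the programme. It lies on the minus strand of chromosome 7 (16791811 to 16833433). Per kilobase of annotated exon its median level was 100.8 CPM, against 34.8 for TFF1, 28.1 for GCNT3, 27.9 for SPDEF, 7.86 for FOXA3 and 0.816 for FCGBP. In transduced E690K TFF1 was slightly above it (69.0 against 67.8 CPM per kilobase). By CPM it was at 360.2 untreated and 250.8 transduced in WT, 356.1 and 459.6 in KO, 314.9 and 883.7 in L101P, 258.6 and 163.9 in E292V, and 222.4 and 192.9 in E690K. The transduced L101P library was the highest and the transduced E292V library the lowest. By their labels the 5 untreated libraries lay between 222.4 and 360.2 CPM, and with the KO pair turned round between 222.4 and 459.6 CPM. Its RefSeq start region (GRCh38.p14, chr7:16804950-16805249, minus strand) is shown as that of the member with the highest median, and it held none of the 4 motifs.
AGR2: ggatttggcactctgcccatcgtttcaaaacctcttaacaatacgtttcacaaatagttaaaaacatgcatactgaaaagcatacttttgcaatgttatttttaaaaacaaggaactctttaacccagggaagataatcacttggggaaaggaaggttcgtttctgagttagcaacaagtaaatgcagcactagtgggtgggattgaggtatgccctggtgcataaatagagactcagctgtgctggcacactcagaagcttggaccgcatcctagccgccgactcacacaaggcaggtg
The RefSeq start lies inside the longer GENCODE gene. AGR3, the neighbouring paralog, whose annotated transcripts share a run of at most 14 bases with those of AGR2, had 72 counts in transduced L101P, 6 to 10 counts in the untreated WT library and the KO and E690K pairs, and 0 in the other 4 libraries. It did not pass the filter without the L101P pair or without the E690K pair, so its fitted values rest on few counts.

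GCNT3 had the narrowest range of these 7 genes. This mucin-type core 2 glycosyltransferase was at 191.4 and 172.9 CPM in WT, 238.8 and 256.4 in KO, 194.9 and 285.9 in L101P, 143.6 and 124.6 in E292V, and 168.8 and 165.1 in E690K, a 2.29-fold span. Its annotated span overlaps GTF2A2 on the opposite strand, which had 5538 to 9411 counts. Strand use in counting is not stated, so reads of both genes cannot be told apart where their exons meet.

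FCGBP, the IgG Fc-binding protein of mucus, was at 8.62 and 10.7 CPM in WT, 12.2 and 15.9 in KO, 13.8 and 37.3 in L101P, 3.03 and 3.43 in E292V, and 9.60 and 10.5 in E690K. Both E292V libraries were below the other 8, and transduced L101P was above the other 9, of which the highest was at 15.9 CPM. The FCGBP start region (GRCh38.p14, chr19:39934585-39934884, minus strand) is given because this gene had the smallest p of the members for the vector, and it held none of the 4 motifs.
FCGBP: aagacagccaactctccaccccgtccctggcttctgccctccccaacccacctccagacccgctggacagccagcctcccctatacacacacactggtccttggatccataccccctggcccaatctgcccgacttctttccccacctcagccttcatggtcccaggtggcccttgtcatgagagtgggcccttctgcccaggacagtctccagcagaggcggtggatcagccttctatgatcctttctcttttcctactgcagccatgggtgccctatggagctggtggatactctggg
REG4, a secreted lectin of intestinal goblet and enteroendocrine cells, had 12 counts in transduced L101P (0.124 CPM) and 0 in the other 9 libraries, and did not pass the filter.

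How the other lines differed from WT was described with a single fit in which line and vector add up. TFF1 was higher than WT by log2 fold changes of 3.23 (SE 0.58) in KO, 4.42 (SE 0.61) in L101P and 3.87 (SE 0.59) in E690K, and was at -1.05 (SE 0.67) in E292V. FCGBP was at 0.57 (SE 0.25), 1.37 (SE 0.25) and 0.12 (SE 0.25) in KO, L101P and E690K and at -1.58 (SE 0.26) in E292V. SPDEF was at 0.43 in KO and 0.51 in L101P, and at -1.02 in E292V and -0.50 in E690K, with SE of 0.19 to 0.20. E292V had the lowest fitted values of the 4 lines for TFF1, SPDEF, FOXA3, AGR2, GCNT3 and FCGBP, and of these genes L101P had the highest for all but GCNT3. In the untreated libraries alone the order differed: L101P was at 0.874 of WT for AGR2, 0.901 for FOXA3 and 1.10 for SPDEF, and KO at 0.989, 1.00 and 1.13 by its labels. Turned round, KO was at 459.6, 21.6 and 71.7 CPM for these genes, against 360.2, 20.3 and 60.2 in untreated WT. For TFF1 untreated L101P was at 7.37 times WT and untreated E690K at 13.4 times. FOXA3 was at 0.24, 0.31, -0.76 and -0.41 in KO, L101P, E292V and E690K (SE 0.19 each), and GCNT3 at 0.47, 0.44, -0.45 and -0.08 (SE 0.14 each). AGR2 was at 0.43, 0.99, -0.54 and -0.51 in that order (SE 0.36 to 0.37), and TFF3 at 0.59, 2.54, 0.11 and 1.30 (SE 0.82 to 0.86). The 4 contrasts share the WT libraries.

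**Figure D2:**
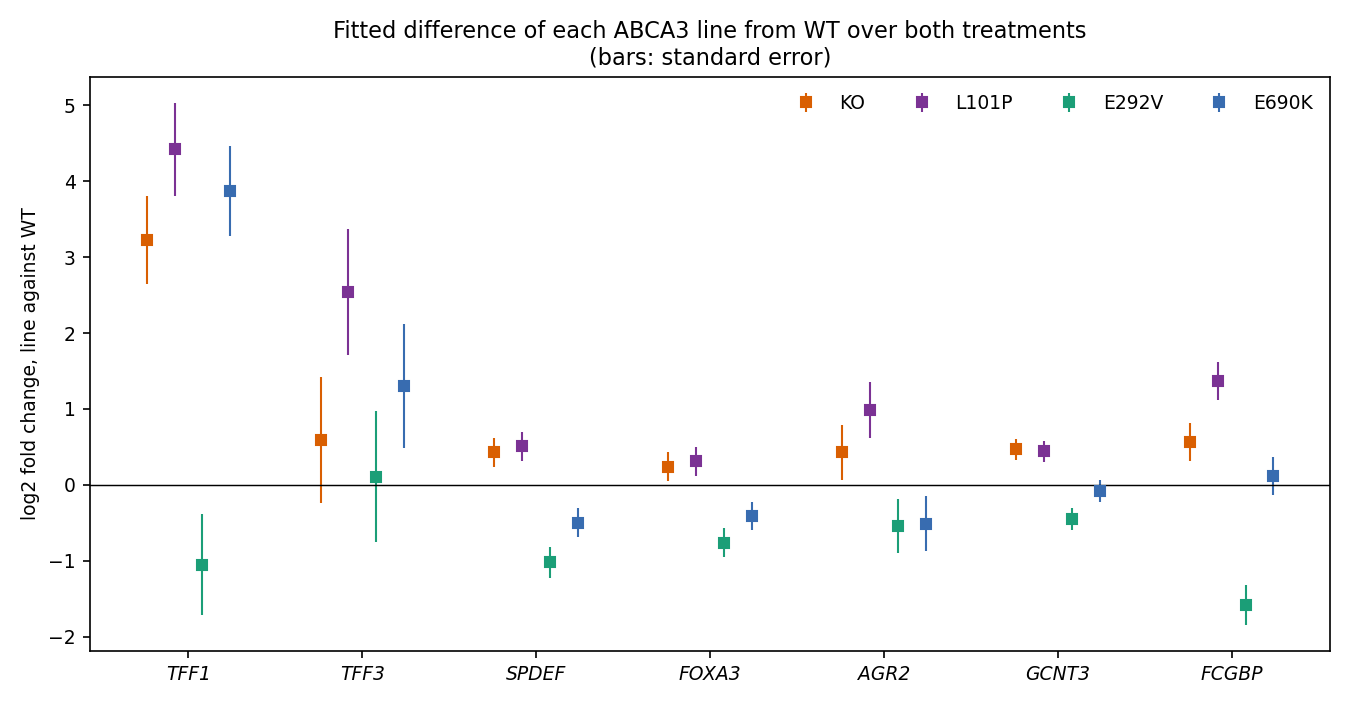
Fitted log2 fold change of each ABCA3 line against WT for 7 genes, over both treatments, with bars for the standard error. TFF1 is 3.23 to 4.42 above WT in KO, L101P and E690K, whereas SPDEF, FOXA3 and AGR2 are above 0 in KO and L101P and below 0 in E292V and E690K in this fit over both treatments. Untreated L101P was below WT for FOXA3 and AGR2. Untreated KO was below WT for AGR2 by its labels (356.1 against 360.2 CPM) and above it with the KO pair turned round (459.6 CPM).

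Whether the vector altered the programme was asked in the pairs of libraries, with the 5 lines as replicates. EGFP went against the labels in KO, had overlapping intervals in E690K and was counted in untreated WT. A lack of calls in these pairs therefore does not show that the vector had no effect. None of the 8 tested members passed (0 of 8, edgeR adjusted p 0.464 to 0.971, DESeq2 also called 0), and of all genes 0.0% did. At an unadjusted edgeR p under 0.05 there was 1 of 8, beside 6.88% of all genes. FCGBP had the smallest p: it was higher in the transduced library in 5 of 5 lines by their labels and in 4 of 5 with the KO pair turned round, with a log2 change of 0.52 (SE 0.16, unadjusted edgeR p 0.00733, adjusted p 0.464). Without the L101P pair its change was 0.27 (SE 0.10, edgeR adjusted p 0.294), and with the KO labels exchanged it was 0.35 (SE 0.20, adjusted p 1.0). The 95% counting interval of the FCGBP ratio included 1 in E292V (0.881 to 1.433) and in E690K (0.9446 to 1.26). TFF1 was higher in 3 of 5 lines, by 0.60 on average on the log2 scale (SE 0.37, edgeR adjusted p 0.829), and by 0.09 (SE 0.21) without the L101P pair. In E690K, counted among the 3, TFF1 had a ratio of 1.004 (0.9329 to 1.08). With the KO labels exchanged it was higher in 2 of 5 lines and the change was 0.06 (SE 0.42). Without the L101P pair 133 of all genes were called and still 0 members. SPDEF (-0.17, SE 0.12), FOXA3 (-0.08, SE 0.12), AGR2 (0.10, SE 0.23) and GCNT3 (0.08, SE 0.09) were each higher in 2 lines and lower in 3, with edgeR adjusted p of 0.873 to 0.971. TFF3 was lower in 4 of 5 lines (-0.41, SE 0.53), and AGR3 could be compared in 2 lines (0.62, SE 1.39).

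The direction of change within single lines differed between the lines, and some of the changes lay within counting error. In the L101P pair all 7 genes with more than 3 counts in both libraries were higher after transduction: TFF1 5.10-fold (95% counting interval 4.69 to 5.56), AGR2 2.81-fold (2.74 to 2.87), FCGBP 2.70-fold (2.43 to 3.01), TFF3 2.25-fold (1.37 to 3.84), GCNT3 1.47-fold, FOXA3 1.36-fold and SPDEF 1.201-fold. In E292V 6 of 7 were lower after transduction, with ratios of 0.330 for TFF1 (0.211 to 0.507), 0.551 for SPDEF, 0.634 for AGR2, 0.689 for FOXA3, 0.868 for GCNT3 and 0.0875 for TFF3 (38 and 4 counts), beside 1.13 for FCGBP. In WT 6 of 7 were lower, with AGR2 at 0.696 and SPDEF at 0.771 of the untreated level. Of these, TFF1 (0.915, 0.697 to 1.20) and TFF3 (20 and 16 counts) lay within counting error. By its labels the KO pair had 7 of 8 higher, TFF1 by 2.02-fold (1.84 to 2.22) and AGR2 by 1.29-fold. Of these, SPDEF (1.052, 0.9969 to 1.109), FOXA3 (1.059, 0.9595 to 1.168) and AGR3 (8 and 9 counts) lay within counting error. Turned round, the KO pair had 7 of 8 lower, with TFF1 at 0.495 and AGR2 at 0.775. E690K had 3 of 8 higher and 5 lower, with TFF1 at 1.00 and AGR2 at 0.867. With 1 library for each line and treatment these ratios have no replicate error, and a difference between lines was not tested. The share of all genes higher in each pair was not counted. Of 9458 genes averaging 10 CPM or more, 45 were over 2-fold higher and 6 lower in L101P with TMM factors. In KO by its labels 4 were higher and 3 lower, and in E292V 15 higher and 4 lower. Of the 6 members at that level, 3 were over 2-fold higher by CPM in L101P and 1 in KO, and 1 was lower in E292V. With TMM factors the median log2 change over 9458 genes averaging 10 CPM or more was 0.02 in L101P and 0.01 in the other lines.

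**Figure D3:**
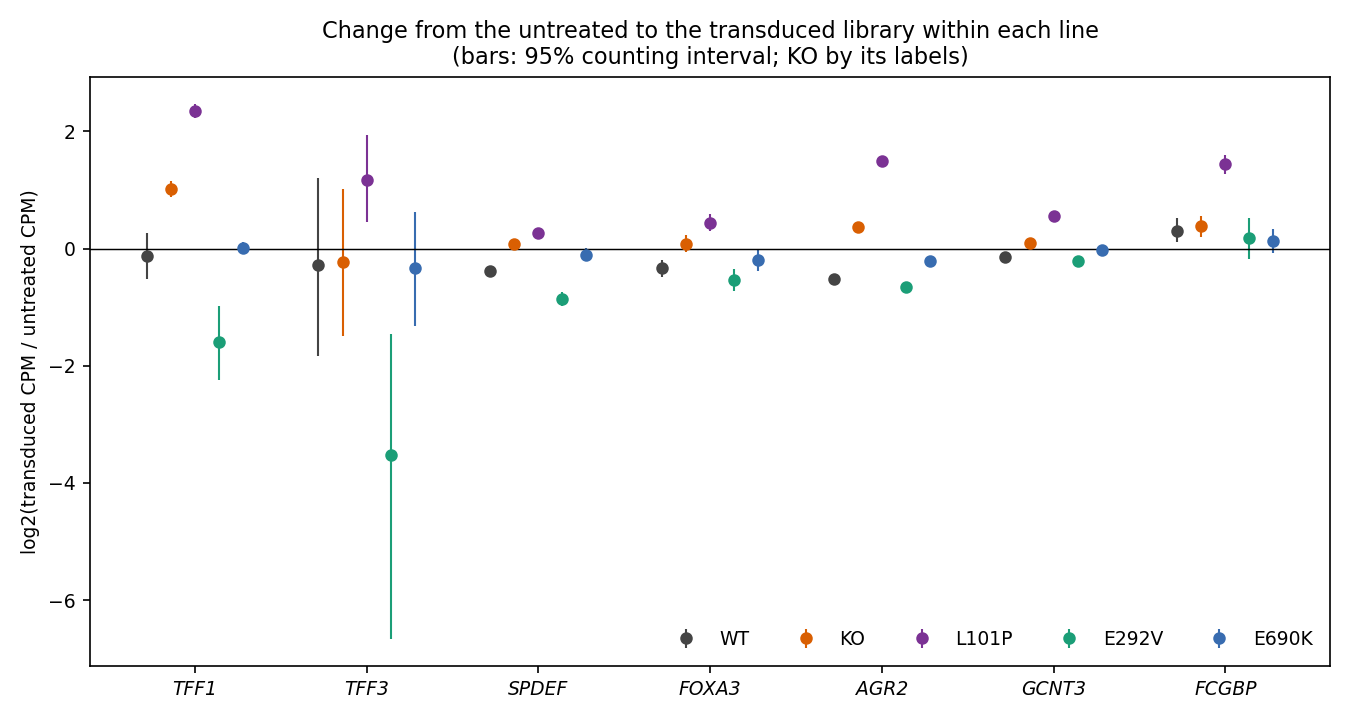
The log2 ratio of transduced to untreated CPM for 7 genes within each line, with bars for the 95% counting interval and the KO pair by its labels. L101P is above 0 for the 7 genes, and E292V is below 0 for all but FCGBP.

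Lists of related genes, none of them members, were examined in the same fit. The 6 pathway lists held 141 genes, of which 114 were tested. None passed with the vector by edgeR (0 of 114, smallest adjusted p 0.209), and DESeq2 called 2, ITGA3 and RUNX1. At an unadjusted edgeR p under 0.05 there were 16 of 114, beside 6.88% of all genes. The median log2 change was 0.08 beside 0.00 over all genes. Against WT, 5 genes rose and 1 fell in KO (5.26% of those tested, beside 1.8% of all genes) and 9 rose and 1 fell in L101P (8.77% beside 3.94%). In E292V 1 rose and 1 fell (1.75% beside 1.05%), and in E690K 11 rose and 4 fell (13.2% beside 5.38%). The medians were 0.10, 0.17, -0.03 and 0.00 in KO, L101P, E292V and E690K, with all genes between -0.02 and 0.00. The counts depended on single pairs, and the calls over all genes moved with them. Without the E690K pair KO had 2 list calls (ACKR3 and GALNT5; 147 of all genes), L101P 6 (367) and E292V 1 (F2RL1; 57). Without the L101P pair KO had 17 (1124 of all genes), E292V 13 (689) and E690K 33 (1993). Without the KO pair E292V had 1 (88) and E690K 10 (639). With all pairs 323, 709, 189 and 967 genes were called in KO, L101P, E292V and E690K. With the KO labels exchanged, KO had 2, again ACKR3 and GALNT5 (142 of all genes), and E292V 1, F2RL1 (105). The lists were drawn up with earlier results in view, MUC5AC among them, so these shares are not independent of the comparison. For the line contrasts the share of all genes at an unadjusted p under 0.05 was not counted. Counts at that limit given below for lines therefore cannot be set against a background.

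Among 13 tested mucus products, MUC5AC, the main gel-forming mucin of airway goblet cells, rose in KO (log2 2.68, SE 0.55), L101P (3.71, SE 0.58) and E690K (2.59, SE 0.55; edgeR adjusted p 0.00537 to 0.0321). It was at 14.2 and 21.8 CPM in WT, 64.7 and 178 in KO, 77.4 and 447 in L101P, 17.5 and 10.4 in E292V, and 103 and 91.4 in E690K, so its 6 high libraries were those of TFF1. MUC5AC was listed with earlier results of these data in view, so its calls are a description and not independent support. MUC5AC and MUC5B are neighbouring paralogs, and how the counting split reads that fit both is not stated. The KO call was lost without the E690K pair and with the KO labels exchanged (edgeR adjusted p up to 0.0848), and the E690K call with the labels exchanged (adjusted p 0.0668). MUC5B rose in L101P (1.77, SE 0.38, edgeR adjusted p 0.0241), a call lost without the E690K pair and with the KO labels exchanged (adjusted p up to 0.0666). DMBT1, with 10 to 184 counts and named after its values were seen, rose in E690K (3.74, SE 0.61, edgeR adjusted p 0.00398). No mucus product passed in E292V by edgeR (2 with an unadjusted p under 0.05). The median log2 difference of the list was 0.59, 1.77, -0.33 and 0.89 in KO, L101P, E292V and E690K, and CLCA1, RETNLB, SCGB3A1, REG1A and REG3A had 0 counts throughout.

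Of 28 tested enzymes on the mucin glycosylation list, 3 rose in L101P, 3 in E690K, 1 in KO and 0 in E292V. By edgeR 0 fell in any line (6 had an unadjusted p under 0.05 in E292V). Whether each listed enzyme acts on mucins was not examined. GALNT5, which starts O-glycan chains, rose in KO (1.17, SE 0.17), L101P (1.14, SE 0.17) and E690K (1.13, SE 0.17; edgeR adjusted p 0.00254 to 0.00577). B3GNT3, an N-acetylglucosaminyltransferase, rose in L101P (1.01, SE 0.23, edgeR adjusted p 0.0277) and B3GNT5 in E690K (0.54, SE 0.13, adjusted p 0.0351). The B3GNT3 call was lost without the E690K pair (edgeR adjusted p 0.0752) and the B3GNT5 call without the KO pair or with its labels exchanged (adjusted p up to 0.145), while the GALNT5 calls held in these settings. The remaining calls were GALNT7 in L101P (0.57) and GALNT2 in E690K (0.39), both named after their values were seen.

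Of 24 tested goblet and foregut transcription factors, KLF4, a zinc-finger factor of differentiating epithelium, rose in KO (0.48, SE 0.11), L101P (0.66, SE 0.11) and E690K (0.73, SE 0.11; edgeR adjusted p 0.00185 to 0.0431). In E690K RUNX1 rose (0.71, SE 0.17, edgeR adjusted p 0.0295), while XBP1, the unfolded-protein-response factor of secretory cells, fell (-0.76, SE 0.10, adjusted p 0.00112), as did the epithelial ETS factor ELF3 (-0.46, SE 0.11, adjusted p 0.0368). HNF4G fell in E292V (-0.70, SE 0.14, edgeR adjusted p 0.0311). Without the KO pair or with its labels exchanged RUNX1, ELF3 and HNF4G lost their calls, without the E690K pair HNF4G and KLF4 in KO did, and with the labels exchanged KLF4 in KO did too (edgeR adjusted p up to 0.124). ATOH1 and CDX1 had 0 counts in the 10 libraries. None of the 26 tested genes of endoplasmic reticulum folding and granule secretion, the setting in which AGR2 works, passed by edgeR in a line contrast (2 to 8 with an unadjusted p under 0.05), and none of the 7 tested genes of the interleukin-13 and STAT6 response did (0 to 2). Over all genes 1.05% to 5.38% passed by adjusted p in a line, so a count of 0 by adjusted p in lists this short lies near that share. The counts at an unadjusted p have no such share beside them.

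Of 16 tested receptors and partners of trefoil and AGR proteins, 2 rose and 1 fell in KO, 3 rose and 1 fell in L101P, 1 rose in E292V, and 4 rose and 2 fell in E690K. The EGFR ligand genes AREG and EREG rose in KO (0.50 and 0.42, SE 0.11 and 0.08, edgeR adjusted p 0.0497 and 0.0228). AREG also rose in L101P (0.53, edgeR adjusted p 0.0241) and EREG in E690K (0.81, adjusted p 0.000228), where EGFR itself rose (0.78, SE 0.11, adjusted p 0.00145). The integrin gene ITGA3 rose in L101P (0.42, edgeR adjusted p 0.0117), and F2RL1, a protease-activated receptor, in E292V (0.49, SE 0.08, adjusted p 0.0134). Without the E690K pair AREG lost its calls in KO and L101P and EREG its call in KO, and with the KO labels exchanged both lost theirs in KO and ITGA3 its call in L101P (edgeR adjusted p up to 0.114). The other calls, outside the naming rule, were EREG in L101P (0.33) and AREG (0.73) and ITGA3 (0.72) in E690K. ACKR3, an atypical chemokine receptor with 2 to 389 counts, was the gene that fell in KO, L101P and E690K. It and CXCR4, the other that fell in E690K, lay below the level set for naming genes and were named after their values were seen.

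**Figure D4:**
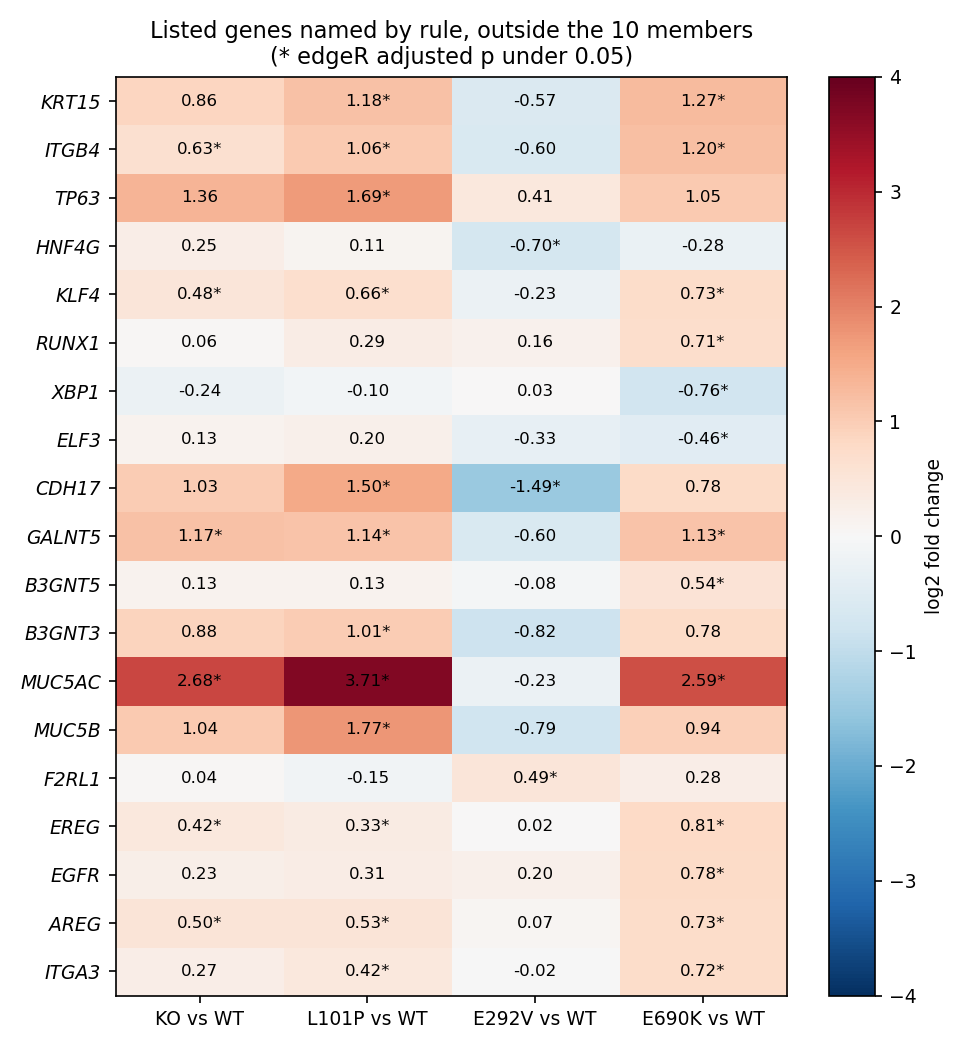
Log2 fold change of each ABCA3 line against WT (columns) for the 19 listed genes named by rule (rows), red above and blue below WT, with an asterisk at an edgeR adjusted p under 0.05. MUC5AC, GALNT5, KLF4, AREG, EREG and ITGB4 carry asterisks in KO, L101P and E690K, and CDH17 has opposite signs in L101P and E292V.

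Markers of other epithelial cells also differed between the lines. The summed level of 7 airway basal markers was 341 and 423 CPM in WT, 499.8 and 666 in KO, 633 and 926 in L101P, 276 and 234 in E292V, and 813 and 863 in E690K. Nearly all of this sum was the integrin gene ITGB4, at 326 and 405 CPM in WT and 612 and 881 in L101P. TP63 was at 2.11 to 12.2 CPM, so the sum describes 1 gene more than a set of basal markers. KRT5, KRT14, NGFR and DLK2, the other markers of this list, were called in no line. Of the 6 tested, 1 rose in KO (ITGB4, 0.63), 3 in L101P (TP63 by 1.69, KRT15 by 1.18 and ITGB4 by 1.06, the last named after its value was seen), 0 in E292V (3 with an unadjusted edgeR p under 0.05) and 2 in E690K (ITGB4 and KRT15). The intestinal cadherin CDH17 rose in L101P (1.50, SE 0.24, edgeR adjusted p 0.00624) and fell in E292V (-1.49, SE 0.25, adjusted p 0.0150). With the KO labels exchanged the calls of KRT15 in both lines, TP63 in L101P and ITGB4 in KO were lost, without the E690K pair those of ITGB4 in KO, KRT15 in L101P and CDH17 in E292V, and without the KO pair that of KRT15 in L101P (edgeR adjusted p up to 0.139). The 9 intestinal markers summed to 43.2 and 43.7 CPM in WT, 78.1 and 117 in KO, 75.8 and 180.5 in L101P, 20.8 and 16.4 in E292V, and 84.6 and 76.5 in E690K, and FABP1 and SI, which define absorptive enterocytes, had 0 counts. Most of the intestinal sum was CDH17, at 33.3 and 37.1 CPM in WT and 66.5 and 129.5 in L101P. The 8 gastric pit and gland markers summed to 7.42 to 18.1 CPM, with 1 of 6 tested higher in L101P (ANXA10, 1.81, named after its value was seen). Of the 8 ciliated markers, summing to 20.1 to 44.2 CPM, 0 passed in any line by edgeR (0 to 2 with an unadjusted p under 0.05), nor did any of the 5 alveolar markers tested (0 with an unadjusted p under 0.05). In lists this short a count of 0 by adjusted p lies near the 1.05% to 5.38% of all genes called in a line. The part of basal or intestinal features in the levels of the 10 genes was not tested, and in bulk RNA more cells with a transcript and more transcript per cell cannot be told apart.

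The trefoil genes lie side by side, and the genes around them were read for the same pattern. Within 250 kb of the cluster 8 other genes were rows of the table. Of these SLC37A1 and ABCG1 had at least 124 counts in every library. SLC37A1, about 129.4 kb from the TFF1 start, was at log2 differences from WT of 0.41, 0.54, -0.49 and 0.36 in KO, L101P, E292V and E690K, and ABCG1, on the other side, was at -0.29, 0.94, -0.64 and 0.01. TMPRSS3, the nearest neighbour at 30.3 kb, had 2 to 68 counts and was at -1.75, 1.28, -1.55 and -0.70, which does not follow the order of TFF1. RSPH1 had 21 to 121 counts and was at 0.76, 0.97, -0.05 and 0.61. SLC37A1 and RSPH1 shared the signs of TFF1 in the 4 contrasts, while TMPRSS3 differed in sign in KO and E690K and ABCG1 in KO. Within 500 kb, 20 other genes were rows, and the better counted PRDM15, C2CD2, ZBTB21, PDE9A and WDR4 were between -0.35 and 0.36 in the 4 contrasts. Of the 8 nearer genes 4 were tested (ABCG1, TMPRSS3, RSPH1 and SLC37A1), and none of these passed an edgeR adjusted p of 0.05 in a line, the nearest being SLC37A1 in L101P (adjusted p 0.0859). Around the AGR pair, TSPAN13 had log2 differences of 0.31, 0.34, -0.35 and -0.26 in KO, L101P, E292V and E690K, the same signs as AGR2, and AHR had 0.26, 0.39, -0.28 and -0.04. BZW2 (-0.15, -0.12, 0.03 and -0.03) and ANKMY2 (0.05, 0.08, 0.19 and -0.20) did not share the signs of AGR2, and none of the 4 passed in a line by edgeR.

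**Figure D5:**
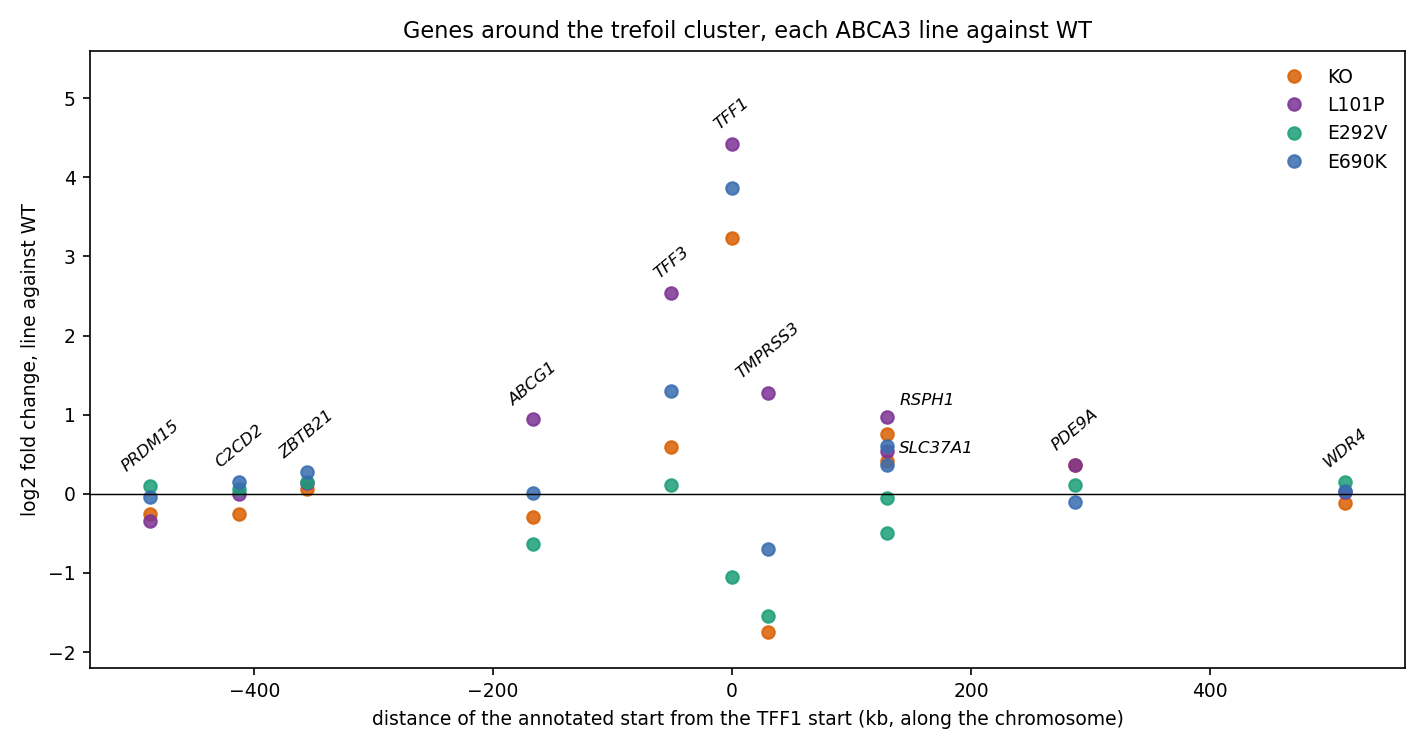
Log2 fold change of each ABCA3 line against WT for genes with counts in every library and at least 60 in the highest, by the distance of their annotated start from that of TFF1 in kb. TFF1 reaches 4.42 and TFF3 2.54, and the next highest value is 1.28 for TMPRSS3.

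The genes most like TFF1 were taken by Pearson correlation of log2 CPM over the 10 libraries, among 11963 other genes with an average log2 CPM of at least 1. The 5 highest were LGR6 (0.994), ICMT (0.994), NRF1 (0.993), SAPCD2 (0.993) and WNT9A (0.992), and the 3 lowest RHOQ (-0.987), SOCS3 (-0.986) and NXPH4 (-0.984). LGR6, an R-spondin receptor, was at 4.51 and 4.83 CPM in WT, 10.8 and 16.2 in KO, 15.6 and 32.4 in L101P, 3.21 and 2.05 in E292V, and 19.7 and 17.8 in E690K. By contrast ICMT and NRF1 moved little in size, from 146 to 198 CPM and from 25.8 to 34.6 CPM. Among the members themselves FCGBP was closest to TFF1 (0.84) and AGR2 farthest (0.59). These are descriptions over libraries that share 5 lines.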

How the data were processed

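The authors deposited whole-number counts per gene for 10 libraries, 1 column each. Per the submitters' processing notes, featureCounts, Subread, edgeR, limma and GRCh38 were used, with no version or role. The annotation and strand setting are not given in the sources used here. No row lacked a name, and 0 columns were left unused. Gene positions and exon lengths came from GENCODE release 29, which held 98.7% of the row names, and promoters from RefSeq's GRCh38.p14 table, which held 7 of the 10 members.

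Depth was 59430095 to 96811421 counts. The analysis of these counts used R 4.3.3 with edgeR 4.0.16: filterByExpr, TMM factors (0.972 to 1.03), 1 additive quasi-likelihood fit of line and vector (4 residual degrees of freedom; tested on simulated data) and Benjamini-Hochberg adjustment over 17978 genes, threshold 0.05. The standard error is the log2 fold change over the square root of F. The cell line pairs the libraries, so line is a block. Separate cultures are not stated, so p-values measure the spread among these libraries. CPM uses the library total. Alternatives were median-ratio factors, 2 other filters, DESeq2 1.42.0, each line pair left out, exchanged KO labels and no block, and, chosen after seeing the data, the KO pair turned round within each gene and the calls of named genes under left-out pairs. The members, lists and tests were chosen with earlier results of these data known. Named list genes are the 2 higher and 2 lower with the largest change per list and contrast that passed, with an average log2 CPM of at least 1 and the same direction in both pairs.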

Additional observations from a re-analysis of the deposited data

Results flagged for a closer look

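The change of FCGBP with the vector stood apart in L101P. On the log2 scale it was 1.43 there, against 0.31 in WT, 0.38 in KO, 0.18 in E292V and 0.13 in E690K, and the distance from L101P to KO, the next value, made up 0.806 of the spread of the 5 values, where the limit is 0.71. Of 7 genes examined in this way, 1 stood beyond the limit, and chance alone puts about 1 in 20 such sets there. With the KO pair turned round, an alternative chosen after seeing the data, the FCGBP gap was 0.621 and within the limit, while L101P stood beyond it for AGR2 (0.789) and GCNT3 (0.772). The transduced L101P library was the highest of the 10 for 9 of the 10 members. It was also the deepest, and the untreated L101P library the shallowest. The part of depth in this was not tested, and the share of all genes highest in that library was not counted. The 9 include REG4 and AGR3, with 12 and 72 counts there.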

How the results depend on the processing

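The count of members past the threshold with the vector was 0 under every alternative except without a filter on low counts, where it was 2 (FCGBP, edgeR adjusted p 0.002627, and TFF1, 0.04997) beside 237 of all genes. It was 0 with no replicate block. For the pathway lists and the vector the count of 0 became 8 without the filter and 2 under DESeq2 (113 of all genes), and 0 to 4 leaving out a line pair. Against WT, without the filter the list counts were 16, 32, 14 and 33 in KO, L101P, E292V and E690K (982, 1437, 662 and 1659 of all genes), and under DESeq2 11, 20, 5 and 25 (744, 1236, 432 and 1464). Leaving out 1 other line pair gave 2 to 17 for KO, 6 to 14 for L101P, 1 to 13 for E292V and 10 to 33 for E690K. The highest values for KO, E292V and E690K came without the L101P pair and the lowest for KO and L101P without the E690K pair. With the KO labels exchanged KO had 2 and E292V 1. The cause was not tested. No log2 difference of a member from WT moved by its standard error (242 values). Among vector effects of members the direction turned for TFF3 with no replicate block (0.18) and for AGR2 with exchanged KO labels (-0.06). Leaving out a line pair, TFF3 ran from -0.89 to 0.13, FOXA3 from -0.23 to 0.02, AGR2 from -0.24 to 0.29 and GCNT3 from -0.05 to 0.14, the lowest without the L101P pair and the highest without the E292V pair. Ranked by Spearman correlation, the 5 genes most like TFF1 shared 1 with those by Pearson, and a window of 500 kb held 20 neighbours in place of 8.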
